A study of Mus musculus with 6 samples.

Results

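The genes described here are 10 genes of the MHC class II pathway, H2-Aa, H2-Ab1, H2-Eb1, H2-DMa, H2-DMb1, H2-DMb2, H2-Oa, H2-Ob, Cd74 and Ciita. They were picked by gene symbol, with earlier results of these data known. All 10 were listed in all 4 RNA libraries, among 14455 gene symbols in all. The libraries hold total RNA of sorted LSK cells, which lack lineage markers, carry Sca-1 and c-Kit, and include the blood stem cells and early progenitors of the bone marrow. The young KO library came from C57BL/6 mice with a conditional Setd2 knockout, 4 weeks after pI-pC, a synthetic double-stranded RNA used to induce such deletions. The young WT library came from C57BL/6 mice of wild-type genotype at the same time after pI-pC. The old KO and old WT libraries were their counterparts 8 months after pI-pC. The labels give the same pI-pC wording for WT as for KO, and the driver of the deletion, the sex, the animals' ages and any pooling of animals are not given in the sources used here. Another 2 samples, for bisulfite sequencing, were not analysed here.

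Class II molecules display peptides from endosomes to CD4+ T cells, and are made mainly by dendritic cells, B cells and activated macrophages. H2-Aa and H2-Ab1 encode the alpha and beta chains of I-A, and H2-Eb1 the beta chain of I-E. C57BL/6 mice make no I-E on the cell surface, because the gene of its alpha chain is defective in this strain. Cd74 encodes the invariant chain, which blocks the peptide groove until it is cut in endosomes. H2-DM, made of H2-DMa with H2-DMb1 or H2-DMb2, then exchanges the last invariant chain fragment for peptides, and H2-O, made of H2-Oa and H2-Ob, inhibits H2-DM. Ciita, the class II transactivator, binds no DNA itself and is recruited by factors that sit on the X and Y boxes of these promoters.

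The promoter stretches are shown because most members whose promoter sequence was at hand share a Y-box core. An X-box core lay beside it in 4 of them. RefSeq start-site windows, of 250 bases before and 50 after the annotated start (GRCm38.p6), were at hand for 7 of the 10 members. In each line the capitals mark TGATTGG, a Y-box core, AACNNATG, an X-box core, or TGACGTCA, the full site of CREB-type factors, read 5′ to 3′ on the gene's own strand.
H2-Aa (chr17:34287852-34287933, minus strand): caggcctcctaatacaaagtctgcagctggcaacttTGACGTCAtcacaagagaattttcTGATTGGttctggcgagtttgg
H2-Eb1 (chr17:34305746-34305827, plus strand): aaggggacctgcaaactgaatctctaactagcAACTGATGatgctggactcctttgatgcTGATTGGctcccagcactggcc
H2-DMb1 (chr17:34153068-34153149, plus strand): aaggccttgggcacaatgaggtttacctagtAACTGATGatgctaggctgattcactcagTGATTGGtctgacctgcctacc
H2-DMb2 (chr17:34145097-34145178, plus strand): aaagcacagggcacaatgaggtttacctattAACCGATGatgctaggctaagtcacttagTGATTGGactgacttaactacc
H2-Oa (chr17:34092274-34092355, plus strand): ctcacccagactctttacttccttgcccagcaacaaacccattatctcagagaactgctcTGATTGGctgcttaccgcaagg
H2-Ob (chr17:34238786-34238867, plus strand): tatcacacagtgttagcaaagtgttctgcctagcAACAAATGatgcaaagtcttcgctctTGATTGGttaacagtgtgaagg

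The Y-box core stood 45 to 92 bases before the annotated start in these 6 windows. H2-Eb1, H2-DMb1, H2-DMb2 and H2-Ob held the X core as well, with 20, 21, 21 and 18 bases between the cores. H2-Aa had no match to these X core letters but held the CREB-type site, 16 bases before the Y core, and H2-Oa held neither. A missing match to these letters does not show that an X box is absent. The motifs were chosen with these sequences in view and were searched on both strands, and the CREB-type site reads alike on both. Of 32851 windows of the same length, 8.86% held the X core, 7.82% the Y core and 1.79% the CREB-type site. An X core followed on 1 strand by a Y core within 40 bases was in 0.0578% of them, 19 windows, of which 4 belong to the members and another to H2-Eb2, a neighbouring class II gene. The RefSeq start of H2-DMb2 lies 1942 bases inside the gene as the files give it. Both H2-DMa windows lie far before the start that the files give, the nearer at an offset of -9664 bases, and are not shown. A match is a run of letters and was not tested for binding.

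With 1 library in each group, no difference could be checked against replicates or tested, and each describes these libraries alone. Values are FPKM (fragments normalised to transcript length and to sequencing depth) after scaling the libraries to each other, and can be compared between genes because they are per length. Differences are given on the log2(FPKM + 1) scale, which understates changes of low genes, beside the plain ratio of the values. The spacing of low values gave a counting error of 32.3% to 33.5% at an FPKM of 1 for a nominal transcript of 1 kb, of 14.5% to 14.97% at 5 and of 7.23% to 7.48% at 20, which covers counting alone. Setd2 stood at 12.4 in young KO and 14.1 in young WT, and at 15.5 in old KO and 15.3 in old WT. A single value for the whole gene does not show whether part of it was deleted, so it does not check the labels. The LSK marker Kit stood between 41.1 and 61.0, and Ly6a, which encodes Sca-1, between 3.17 and 8.81. Immunoglobulin segments took 4.63% of summed FPKM in old KO and 26.7% in old WT, and under 1% in the young libraries. The predicted genes Gm26917 and Gm42418 took 25.5% in young KO and 18.3% in young WT, and 17.8% in old KO and 12.4% in old WT. The part of these shares in the class II values was not tested beyond the rescaling without them. Xist was listed in the old libraries alone and the Y-linked Eif2s3y in the young ones alone, so sex and time after pI-pC cannot be told apart.

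**Figure D1:**
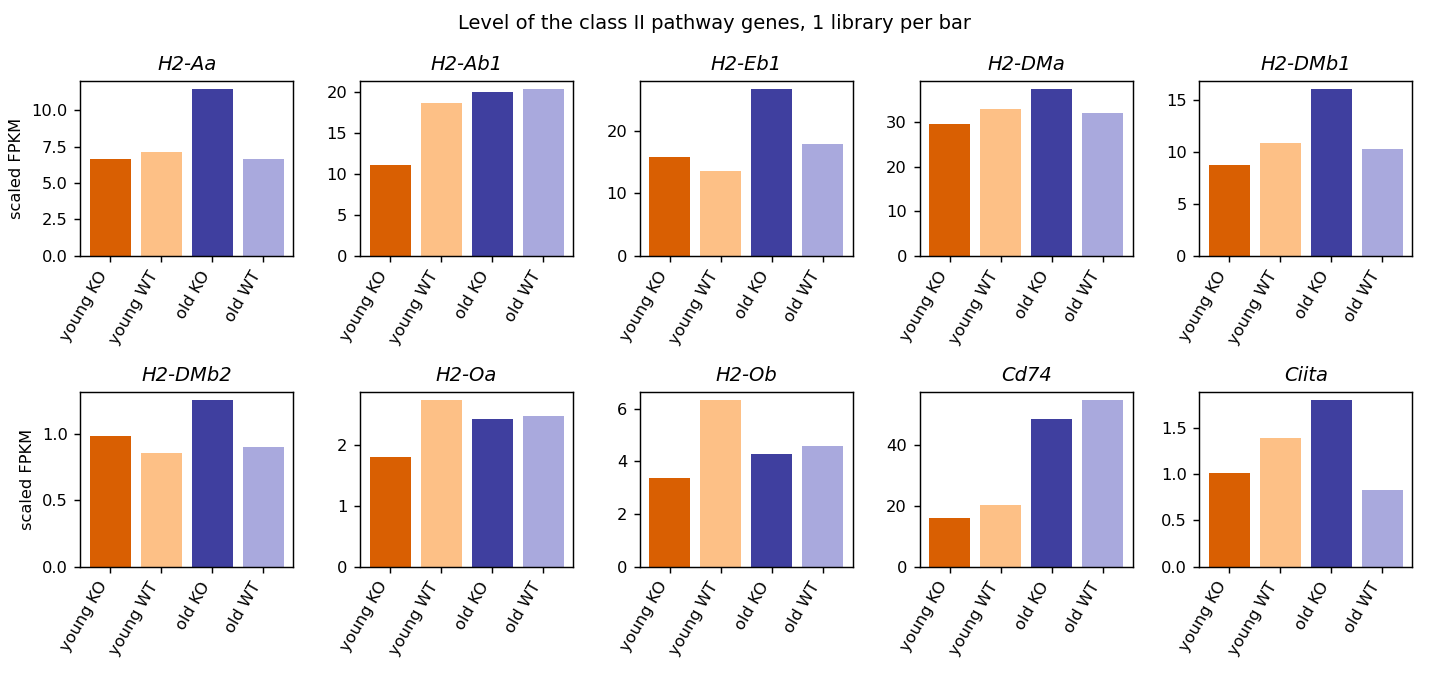
Scaled FPKM (vertical axes, each from 0) of the 10 class II pathway genes in young KO, young WT, old KO and old WT cells, with 1 library per bar and no error bar. H2-Aa, H2-Eb1, H2-DMa, H2-DMb1, H2-DMb2 and Ciita have their highest bar in old KO, and Cd74 has both of its high bars in the old libraries.

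The members spanned a wide range of levels, and the order was much alike in the 4 libraries. H2-DMa and Cd74 led in all of them. H2-DMa lay above 91.4% to 93.4% of the genes that a library listed. H2-DMb1 came below the leading classical chains, followed by H2-Aa, H2-Ob and H2-Oa in that order in every library. H2-DMb2 lay above only 7.98% to 13.8% of the listed genes, and Ciita above 6.80% to 21.1%. Ciita and H2-DMb2 lay within counting error of each other in young KO and old WT. One neighbouring pair changed places with genotype at both ages. H2-Eb1 was above H2-Ab1 in both KO libraries and below it in both WT libraries.

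The first comparison asks what loss of Setd2 changed 4 weeks after induction. Class II pathway genes were modestly lower in young KO cells: 8 of the 9 measured members lay below 0, and their median difference was -0.28, against 0.00 over 12412 measured genes. A gene was measured when it reached 1 in at least 1 of the pair of libraries, which left out H2-DMb2. No member differed by 2-fold, as 1.70% of measured genes did in either direction. H2-Ab1 and H2-Ob were lower by 1.5-fold or more, as 3.66% of measured genes were, and no member was higher by 1.5-fold, as 4.08% were.

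H2-Ab1 (ENSMUSG00000073421, chromosome 17, 34263209 to 34269418, mm10), the I-A beta chain gene, had an FPKM of 11.2 in young KO and 18.7 in young WT, a ratio of 0.599 and a difference of -0.69. H2-Aa (ENSMUSG00000036594, chromosome 17, 34282744 to 34287827), its alpha chain partner, stood at 6.65 in young KO and 7.17 in young WT, a difference of -0.09. H2-Eb1 (ENSMUSG00000060586, chromosome 17, 34305877 to 34316199) stood at 15.7 in young KO and 13.6 in young WT, and was the 1 measured member above 0, at 0.20. The classical chains therefore differed among themselves, with H2-Ab1 low in young KO and the other chains near or above their WT value.

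Among the genes of peptide exchange, H2-DMa (ENSMUSG00000037649, chromosome 17, 34135182 to 34139101) stood at 29.5 in young KO and 32.9 in young WT, and H2-DMb1 (ENSMUSG00000079547, chromosome 17, 34153072 to 34160230) at 8.78 in young KO and 10.9 in young WT. These differences were -0.15 and -0.28. H2-Ob (ENSMUSG00000041538, chromosome 17, 34238903 to 34245907), the beta chain of the inhibitor, had the most negative difference of all members, -0.74, at 3.38 in young KO and 6.33 in young WT. H2-Oa (ENSMUSG00000024334, chromosome 17, 34092340 to 34095234), its alpha chain, stood at 1.81 in young KO and 2.75 in young WT. Its difference of -0.41 compares with a nominal counting error of 0.31. Its locus overlaps that of BC051537, which stood at 0.609 in young KO and 0.766 in young WT and in no old library. Ciita (ENSMUSG00000022504, chromosome 16, 10488178 to 10527564) stood at 1.01 in young KO and 1.38 in young WT, a difference of -0.25 that was smaller than its nominal counting error of 0.33.

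**Figure D2:**
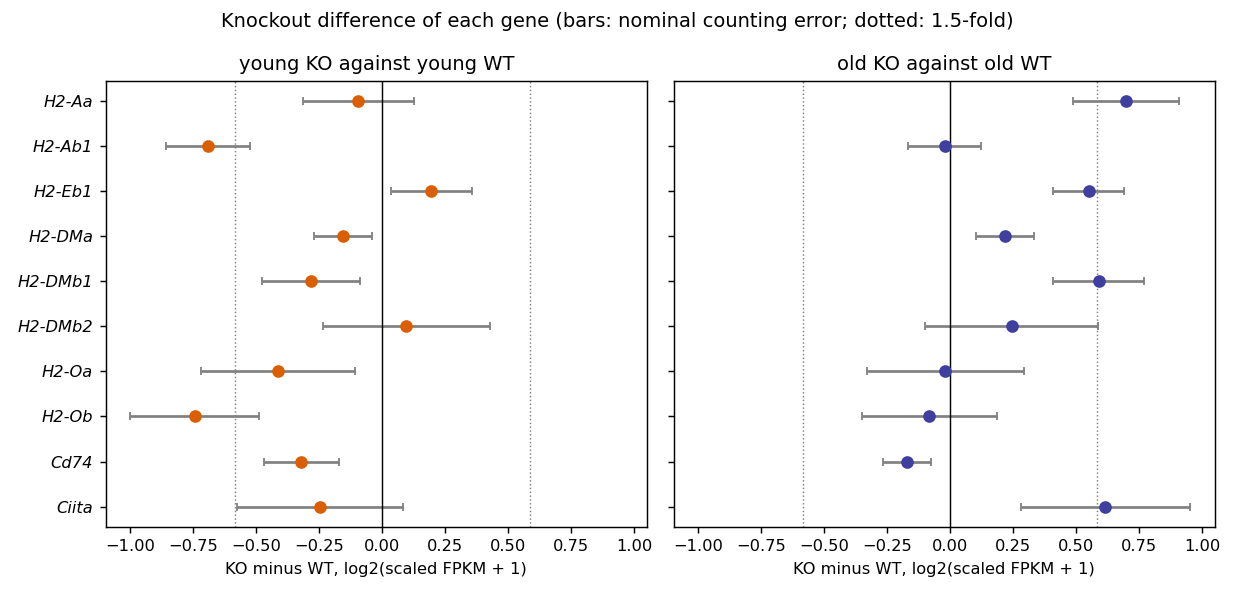
Difference of KO minus WT on the log2(scaled FPKM + 1) scale (horizontal axes) for each gene (vertical axis), in young cells on the left and old cells on the right. Points are 1 pair of libraries each, bars are the nominal counting error for a 1 kb transcript, dotted lines mark 1.5-fold, and H2-DMb2 lay below an FPKM of 1 in both young libraries. H2-Ab1 and H2-Ob lie lowest in young cells, and H2-Aa lies highest in old cells.

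The same comparison 8 months after induction went the other way for several members. Of the 10 members, 6 lay above 0 in old KO cells and 4 below, with a median of 0.23 against 0.00 over 12482 measured genes. None reached 2-fold in either direction on the log2(FPKM + 1) scale, as 4.31% of measured genes did, though the plain ratio of Ciita passed it. H2-Aa, H2-DMb1 and Ciita were higher by 1.5-fold or more, as 5.51% of measured genes were. None was lower by 1.5-fold, as 6.52% were.

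H2-Aa stood at 11.4 in old KO and 6.66 in old WT, a ratio of 1.72 and a difference of 0.70. The old KO library was the high one, since young KO and young WT lay close to old WT. H2-Eb1 stood at 26.6 in old KO and 17.8 in old WT, and its difference of 0.55 lay just short of 1.5-fold. H2-Ab1 stood at 20.05 in old KO and 20.4 in old WT, a difference of -0.02. In young cells both chain genes of I-A lay below 0, H2-Ab1 by more than H2-Aa.

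H2-DMb1 stood at 16.0 in old KO and 10.3 in old WT, and its difference of 0.59 lay just past 1.5-fold. H2-DMa stood at 37.3 in old KO and 31.9 in old WT, a difference of 0.22. H2-DMb2 (ENSMUSG00000037548, chromosome 17, 34143307 to 34151553) stood at 1.26 in old KO and 0.905 in old WT. It stood at 0.985 in young KO and 0.857 in young WT. H2-DMb1 and H2-DMb2 are close copies, so reads may have been split between them in a way that the files do not show, and both values are uncertain to that degree.

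The inhibitor genes barely differed in old cells. H2-Oa stood at 2.44 in old KO and 2.48 in old WT, and H2-Ob at 4.27 in old KO and 4.57 in old WT. Ciita stood at 1.80 in old KO and 0.825 in old WT. That is a plain ratio of 2.18, and a difference of 0.62 with a nominal counting error of 0.34. With a pseudocount of 0.1 its difference was 1.04, past 2-fold, and with one of 5 it was 0.22. Its locus overlaps that of Dexi, which stood at 3.02 in old KO and 3.03 in old WT. The summed FPKM of the 3 classical chains was 33.6 in young KO and 39.4 in young WT, and 58.1 in old KO and 44.8 in old WT. That of the 3 H2-DM chains was 39.3 in young KO and 44.7 in young WT, and 54.6 in old KO and 43.1 in old WT.

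Cd74 (ENSMUSG00000024610, chromosome 18, 60803848 to 60812646) differed more between the old and young libraries than between KO and WT. Sex cannot be told apart from time after pI-pC in the former contrast. It stood at 15.9 in young KO and 20.1 in young WT, and at 48.6 in old KO and 54.8 in old WT. The KO differences were -0.32 in young and -0.17 in old cells, lower in KO at both ages and short of 1.5-fold. Its old KO value was 3.06 times its young KO value, a difference of 1.55. Its old WT value was 2.73 times its young WT value, a difference of 1.40.

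The age comparisons put the other members beside Cd74. Between old WT and young WT, Cd74 was the only member past 2-fold, as 5.50% of measured genes were in either direction. No other measured member was higher by 1.5-fold, as 9.87% of genes were, and none was lower by 1.5-fold, as 5.90% were. H2-Ab1 stood at 20.4 in old WT and 18.7 in young WT, and H2-DMa at 31.9 in old WT and 32.9 in young WT. Between old KO and young KO all 10 members lay above 0, with a median of 0.59 against -0.00 over 12536 measured genes. Of them 5 were higher by 1.5-fold, H2-Aa, H2-Ab1, H2-Eb1, H2-DMb1 and Cd74, as 12.4% of genes were, and none was lower by 1.5-fold, as 8.05% were. Cd74 alone passed 2-fold there, as 7.20% of genes did in either direction. The 4 comparisons share libraries in pairs, so that a high old KO value enters both of its comparisons.

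Ratios of members inside a library do not depend on how the libraries were scaled. The ratio of H2-Ab1 to H2-Aa was 1.68 in young KO and 2.60 in young WT, and 1.75 in old KO and 3.06 in old WT. On the log2 scale it was lower in KO by -0.63 in young and -0.80 in old cells, with nominal counting errors of 0.31 and 0.28. The ratio of H2-Ab1 to H2-Eb1 was 0.710 in young KO and 1.37 in young WT, and 0.754 in old KO and 1.14 in old WT. Its log2 differences were -0.95 and -0.60, with counting errors of 0.25 and 0.21. Both KO libraries thus lay below both WT libraries for either ratio, and the young and old pairs have no library in common. The ratios share H2-Ab1, and different genes moved at each age. H2-Ab1 itself differed by -0.69 in young and -0.02 in old cells. H2-Aa and H2-Eb1 differed by -0.09 and 0.20 in young cells, and by 0.70 and 0.55 in old cells.

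Of the other ratios, that of H2-O to H2-DM was 0.132 in young KO and 0.203 in young WT, and 0.123 in old KO and 0.164 in old WT. It was lower in KO at both ages too, by log2 differences of -0.62 and -0.41 with counting errors of 0.28 each. Cd74 over the sum of the classical chains was 0.474 in young KO and 0.510 in young WT, and 0.837 in old KO and 1.22 in old WT. The young difference in this ratio, -0.11, changed sign when H2-Eb1 was left out of the sum, and the old one of -0.55 did not. H2-DM over the classical chains stood at 1.17 in young KO and 1.13 in young WT, and at 0.940 in old KO and 0.962 in old WT. H2-DMa exceeded the summed H2-DMb genes by ratios of 3.02 in young KO, 2.80 in young WT, 2.16 in old KO and 2.84 in old WT.

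**Figure D3:**
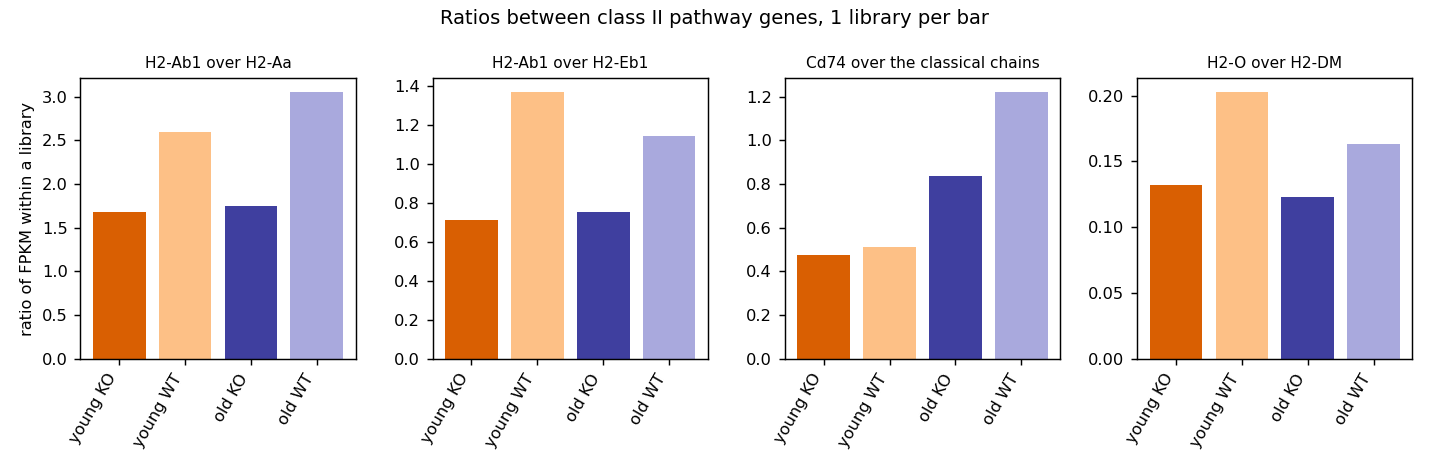
Ratios of FPKM between members inside each library (vertical axes, each from 0), with 1 library per bar in the order young KO, young WT, old KO and old WT. H2-Ab1 over H2-Aa, H2-Ab1 over H2-Eb1 and H2-O over H2-DM are lower in both KO libraries than in both WT libraries, and Cd74 over the classical chains is highest in old WT, at 1.22.

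All members but Cd74 and Ciita lie in a stretch of 223.9 kb on chromosome 17, in which the files list 15 genes. In young cells 6 of the 7 measured members there lay below 0, with a median of -0.28, as did 5 of the 6 other measured genes, with a median of -0.06. Tap2, which carries peptides for class I molecules, stood at 23.6 in young KO and 30.1 in young WT. Its neighbours Psmb9, Tap1 and Psmb8, of the immunoproteasome and the same transporter, differed by 0.05, -0.07 and -0.04. In old cells the members had a median of 0.23 and the 5 other measured genes, with 4 above 0, a median of 0.26. The 2 members past 1.5-fold in young cells, H2-Ob and H2-Ab1, are neighbours apart from the predicted gene Gm20506, which was listed in young WT alone, at 1.17. H2-Aa, next in line, did not share their difference.

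**Figure D4:**
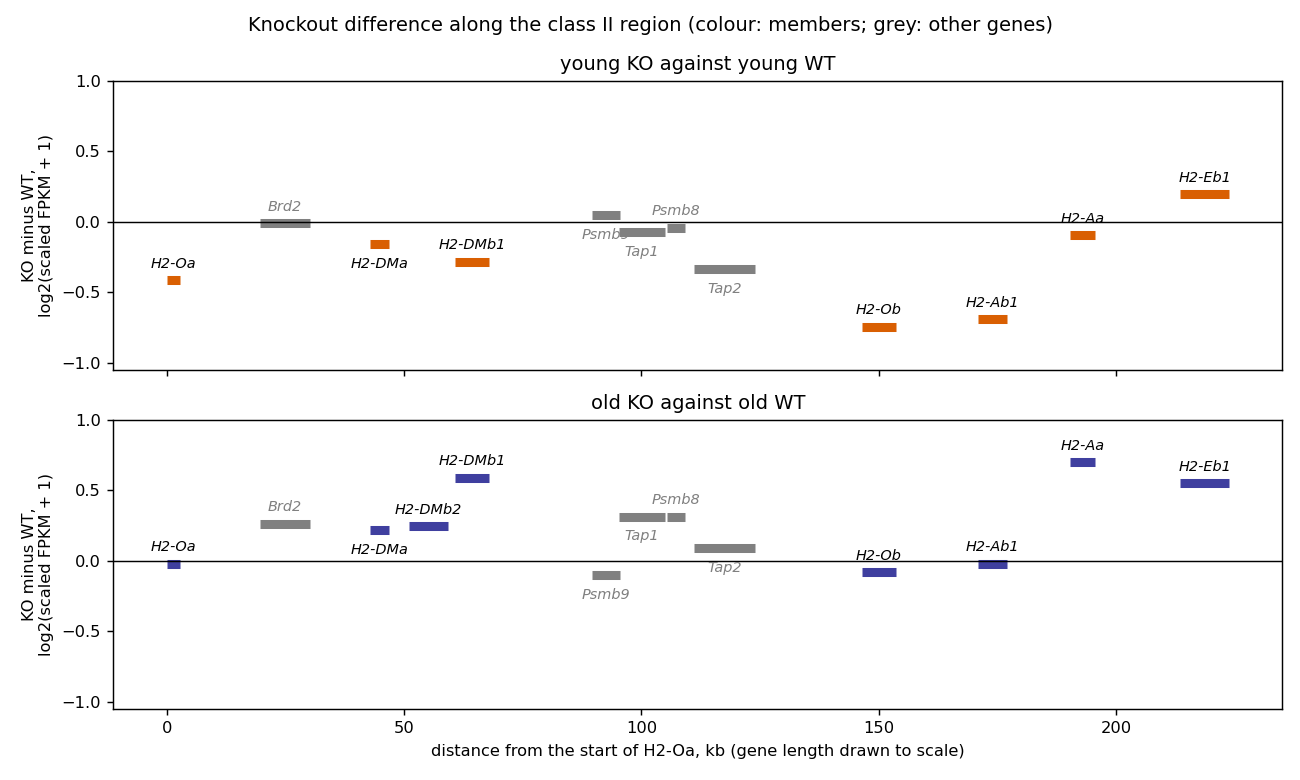
Difference of KO minus WT on the log2(scaled FPKM + 1) scale (vertical axes) along the class II region, by distance from the start of H2-Oa in kb (horizontal axis), for genes listed in all 4 libraries and measured in that comparison. Coloured bars are members and grey bars other genes, drawn to length. In young cells H2-Ob and H2-Ab1 lie lowest, at -0.74 and -0.69, and in old cells H2-Aa lies highest, at 0.70.

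The factors that act on class II promoters did not move as one in either comparison. In young cells 7 of 15 measured regulators lay above 0 and 8 below, with a median of -0.05. Of all measured genes 4.08% were higher by 1.5-fold and 3.66% lower, and none of these regulators was higher. Creb1, of the family that binds the CREB-type site, was the 1 lower by 1.5-fold, at 4.66 in young KO and 10.1 in young WT, and is named because of that value. The X-box factor genes Rfx5, Rfxap and Rfxank, named here for their role, differed by -0.18, 0.48 and 0.11. In old cells 9 of 16 regulators lay above 0, with a median of 0.12. Of the 16, 2 were higher by 1.5-fold, as 5.51% of measured genes were, and 3 were lower, as 6.52% were. Irf8, a transcription factor of monocytes and dendritic cells, stood at 37.5 in old KO and 11.7 in old WT. Spi1, which encodes PU.1, stood at 24.3 in old KO and 11.2 in old WT. The 3 regulators lower by 1.5-fold were Nfya, Irf4 and Prdm1. Nfya, a subunit of the factor that binds the Y box, stood at 7.24 in old KO and 12.4 in old WT, and at 9.96 in young KO and 8.87 in young WT. Irf4 and Prdm1 are factors of plasma cells. Irf4 stood at 4.42 in old KO and 33.9 in old WT, and Prdm1, whose product represses Ciita in plasma cells, at 1.18 in old KO and 7.85 in old WT.

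Of 12 genes that prepare class II ligands in endosomes, 6 were higher by 1.5-fold in old KO cells and none was lower, beside 5.51% and 6.52% of all measured genes. The median was 0.56, with 9 above 0, and Ctsb, Ctsl and Sppl2a, named for their direction, lay below 0 at -0.16, -0.16 and -0.11. The thiol reductase gene Ifi30 stood at 29.6 in old KO and 10.9 in old WT, and Ctss, whose protease cuts the invariant chain, at 35.9 in old KO and 21.5 in old WT. Ctsz stood at 97.8 in old KO and 49.8 in old WT, and Cst3, the inhibitor cystatin C, at 69.2 in old KO and 43.1 in old WT. In young cells 4 of the 12 lay above 0, none differed by 1.5-fold, and the median was -0.12. March8, a ubiquitin ligase that removes class II from the surface, stood at 0.915 in old KO and 3.37 in old WT. It stood at 3.39 in young KO and 3.15 in young WT.

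The class I pathway served as the neighbouring system. None of its 17 genes differed by 1.5-fold between KO and WT at either age. Of all measured genes 4.08% were higher and 3.66% lower by 1.5-fold in young KO, and 5.51% and 6.52% in old KO. The median was -0.07 in young cells, with 12 below 0, and 0.18 in old cells, with 15 above 0. H2-D1 stood at 139.5 in young KO and 144.9 in young WT, and at 237 in old KO and 187 in old WT, and Nlrc5, the transactivator of class I genes, at 11.2 in young KO and 14.9 in young WT, and 14.8 in old KO and 12.7 in old WT. H2-D1 has close copies, so its value is uncertain in the same way as those of H2-DMb. Calr stood at 353 in old KO and 261 in old WT.

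Interferon-gamma, the main inducer of Ciita outside antigen-presenting cells, has a list of 18 signalling and response genes here. In young cells 6 of 15 measured genes lay above 0 and none differed by 1.5-fold, with a median of -0.06. In old cells 15 of 17 lay above 0, with a median of 0.29. Of them 2 were higher by 1.5-fold, as 5.51% of measured genes were, and none was lower, as 6.52% were. The 2 below 0 were Jak2, at -0.14, and Gbp4, at 0.655 in old KO and 1.33 in old WT. Gbp2 stood at 10.2 in old KO and 7.20 in old WT, Gbp3 at 8.28 in old KO and 4.79 in old WT, and Igtp at 6.87 in old KO and 5.01 in old WT. Among 4 measured costimulation genes 2 were higher by 1.5-fold in old KO and none was lower, beside the same 5.51% and 6.52%. Cd274 stood at 10.5 in old KO and 6.46 in old WT. In young cells all 4 lay below 0, 1 of them by 1.5-fold, as 3.66% of measured genes did.

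**Figure D5:**
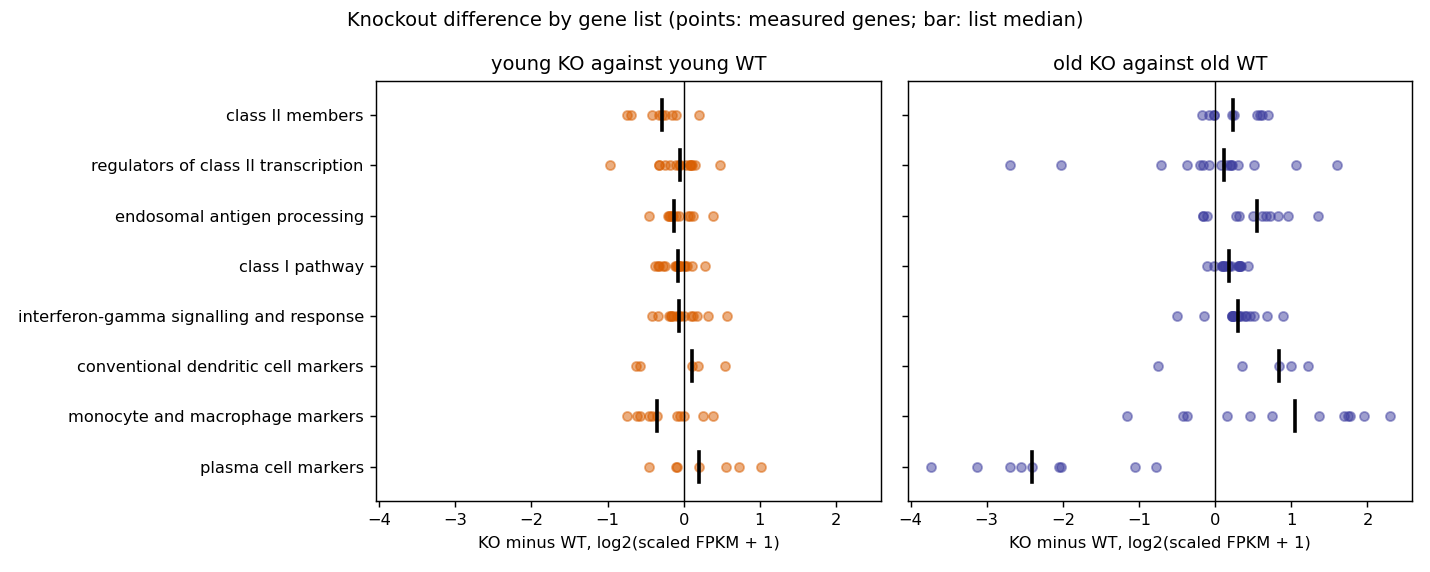
Difference of KO minus WT on the log2(scaled FPKM + 1) scale (horizontal axes) for the class II members and other gene lists (vertical axis), in young cells on the left and old cells on the right. Points are measured genes and black bars list medians. The members' median is -0.28 in young and 0.23 in old cells, and the plasma cell markers reach -3.73 in old cells.

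Markers of cells that make class II differed between the same libraries, most of all in old cells. In bulk RNA, fewer cells of a type and less RNA per cell cannot be told apart. Monocyte and macrophage markers summed to 203 in old KO and 56.6 in old WT. Of 12 measured, 7 were higher by 1.5-fold and 1 lower, beside 5.51% and 6.52% of all measured genes. Past 2-fold, as 4.31% of measured genes were in either direction, lay 7 of them. These were Csf1r, Cd68, Ccr2, Ly6c2, Ms4a6c and Ly86 above, and C1qa below. In young cells the sum was 57.1 in KO and 67.1 in WT, and the median difference was -0.35. Neutrophil markers, from cells that make little class II, summed to 324 in old KO and 39.4 in old WT, and to 4.45 in young KO and 2.50 in young WT. Camp, Ltf, Ngp, Mmp8, Retnlg, S100a8 and S100a9 were past 2-fold in old KO, beside the same 4.31%.

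Plasma cell markers summed to 216 in old KO and 2189.7 in old WT, and to 65.6 in young KO and 53.7 in young WT. All 9 were lower by 1.5-fold in old KO, as 6.52% of measured genes were. All but Tnfrsf13b were lower by 2-fold, which 4.31% of genes passed in either direction. Jchain, Mzb1, Sdc1, Xbp1, Tnfrsf17 and Derl3 were among those past 2-fold. Derl3 was also the 1 past 2-fold in young cells, as 1.70% of measured genes were, and was higher in KO there. B cell markers summed to 19.2 in old KO and 44.1 in old WT, mostly Cd79a at 3.85 in old KO and 23.4 in old WT and Cd79b at 10.2 in old KO and 18.2 in old WT. The sums were 8.41 in young KO and 9.80 in young WT. The mature B cell genes Ms4a1, Cd22, Fcer2a, Cr2, Fcmr and Bank1 were listed in no library.

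Conventional dendritic cell markers were low. Xcr1, Batf3, Cadm1 and Fscn1 were listed in no library, and the others differed in direction. Clec9a stood at 2.00 in old KO and was not listed in old WT, while it was not listed in young KO and stood at 1.31 in young WT. Zbtb46, lower by 1.5-fold in old KO, stood at 0.559 in old KO and 1.63 in old WT, and at 1.60 in young KO and 0.786 in young WT. The list summed to 22.2 in old KO and 10.4 in old WT, of which Dpp4, not particular to these cells, made 13.9 in old KO and 5.39 in old WT. It summed to 13.5 in young KO and 13.8 in young WT. Of the plasmacytoid markers, Siglech, Ccr9, Pacsin1 and Klk1 were listed in no library. The rest summed to 42.1 in old KO and 43.4 in old WT and to 13.9 in young KO and 16.7 in young WT, led by Bst2 and Ly6d. Bst2 is also induced by interferon, and Ly6d, at 4.87 in old KO and 16.0 in old WT, is also made by lymphoid progenitors and B cells.

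T and NK cell markers summed to 49.4 in old KO and 39.2 in old WT, and to 54.2 in young KO and 63.6 in young WT, most of it Nkg7, and Cd4 and Cd8a were listed in no library. Lag3, which binds class II, stood at 7.72 in old KO and 3.27 in old WT. LSK markers summed to 210.3 in young KO and 245 in young WT, and to 211 in old KO and 200.2 in old WT. The part of these markers in the class II differences was not tested.

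Likeness to the mean pattern of H2-Aa, H2-Ab1 and H2-Eb1 over the 4 libraries was measured as a root mean square distance on the log2 scale, after taking each gene's own mean away. The mean pattern stood at -0.32 in young KO, -0.12 in young WT, 0.42 in old KO and 0.01 in old WT, and a gene with no variation lies 0.27 from it. Among 7060 genes that reached an FPKM of 5, the nearest were Gins2 at 0.0167, Gmfg at 0.0264, Ccdc94 at 0.0270, Dirc2 at 0.0317, Zfp593 at 0.0333 and Hk2 at 0.0334. Gmfg stood at 11.7 in young KO, 13.4 in young WT, 20.9 in old KO and 14.7 in old WT. With only 4 libraries many genes can lie this near.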

How the data were processed

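The authors deposited 1 FPKM value per gene and library, and list only genes at 0.5 or more, as the values show. Per the submitters' processing notes the build was mm10 (GRCm38), and HISAT2 2.0.4 and StringTie 1.3.0 are among the tools, without their roles. No source used here states whether strand was used, so overlapping genes may share reads. The RNA input was 100 ng, per the labels' protocols.

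With pandas 2.3.3, rows were summed by symbol, and 18 symbols turned into dates were restored through a table that matched 14382 of 14468 identifiers. Scaling factors were median ratios over the 10935 genes at 1 or more in all 4 libraries. Unlisted genes were set to 0.5, the pseudocount was 1, and a gene was measured at 1 or more in at least 1 of the compared libraries. There was no test, since each group had 1 library. The steps were tested on simulated libraries.

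Depth was read from genes with loci under 1500 bp, whose FPKM times length was a whole number of steps, to within 0.02 of a step, for 62.4% to 69.7% of values. A counted unit was taken as 2 steps in all libraries. Steps of the old libraries were odd multiples in 52.3% and 56.5% of values, against 0.990% and 1.39% in the young ones, so this unit gives the old libraries a larger error than a unit of 1 step would. Transcript lengths were not used here, hence the nominal 1 kb.

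The members and gene lists were chosen with earlier results of these data known. Named genes are all members; in other lists those past 2-fold in a KO comparison and the up to 4 with the largest difference at a value of 5 or more; the 6 nearest by pattern; and Setd2, Kit and Ly6a. The other genes, Creb1, Nfya, Zbtb46, the Rfx genes and those of the class II region among them, were named after their values were seen. Promoter windows come from RefSeq. Values of some genes that this rule names are not reported here.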

Additional observations from a re-analysis of the deposited data

Results flagged for a closer look

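The KO difference had opposite signs in young and old cells for 4 members and for the members' median, each resting on 1 pair of libraries per age. The old difference minus the young one was 0.87 for H2-DMb1, 0.86 for Ciita, 0.79 for H2-Aa and 0.37 for H2-DMa, on the log2(FPKM + 1) scale. For the median of the members it was 0.51. The difference between ages was not tested, because each group had 1 library. The young differences of H2-Aa and Ciita, -0.09 and -0.25, were smaller than their nominal counting errors of 0.22 and 0.33.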

How the results depend on the processing

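The differences of single members were recomputed 300 times over 4 comparisons and 8 alternatives of scaling, pseudocount, filter and the value of unlisted genes. None changed sign, and 12 moved by more than the nominal counting error. Only the alternatives of scaling could have changed a sign. A pseudocount cannot reverse which of the compared values is larger. The filter and the value of unlisted genes do not alter the differences of members, all of which were listed in every library. Without scaling the median of all genes was -0.10 in the young KO comparison and -0.11 between old WT and young WT. With antigen receptor segments and 2 predicted genes left out and the remaining FPKM rescaled to a common total it was -0.09 in the old KO comparison, -0.13 between old WT and young WT and -0.22 between old KO and young KO. Counts past a fold did depend on the settings. With a pseudocount of 0.1, 1 member, Ciita, passed 2-fold in old KO, where none did otherwise, and the other 2-fold counts did not change under these alternatives. A pseudocount of 5 left 0 members lower in young KO and 0 higher in old KO. No scaling, upper-quartile scaling and the rescaling each left 2 members higher in old KO, because H2-DMb1 then fell short of 1.5-fold. The rescaling left 3 members higher between old KO and young KO and made 1 lower between old WT and young WT, as a pseudocount of 0.1 did, which also gave 1. Without H2-Eb1 in the classical sum, the young KO log2 difference in the ratio of Cd74 became 0.20 and that of H2-DM became 0.35, which follows from H2-Eb1 being the chain that was higher in young KO. No paired analysis was possible because each group had 1 library. No replicate could be left out for the same reason. Depth limits Ciita, H2-DMb2 and H2-Oa most, as members near an FPKM of 1 to 3, and transcript lengths would be needed to state their counting error.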

Other observations

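The pathway lists were also compared between the ages. Between old KO and young KO all 17 class I pathway genes lay above 0 with a median of 0.38. Of these, 6 were higher by 1.5-fold, as 12.4% of measured genes were. Of 12 genes of endosomal antigen processing 10 lay above 0 with a median of 1.14, and 9 were higher by 1.5-fold, beside the same 12.4%. Between old WT and young WT the medians were 0.16 and 0.34. There 2 of the 17 class I genes and 3 of the 12 processing genes were higher by 1.5-fold, as 9.87% of measured genes were. The class I count lies near that share. B2m, the light chain of class I, chosen here after its values were seen, stood at 440 in old KO and 195 in young KO, and at 352 in old WT and 211 in young WT. Sex-linked genes differed between the same libraries, as described above, and their part was not tested.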
